A study of Mus musculus with 6 samples.

Results

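The 8 genes described here, Cspg4, Cspg5, Bcan, Ncan, Vcan, Ptprz1, Tnr and Tnc, encode the proteoglycans and tenascins known from oligodendrocyte precursor cells (OPCs). They were chosen by name, and each enhancer-gene pair whose target carries the Ensembl identifier of one of them was taken from the 2 tables of regulatory predictions. The 8 are among 32049 target genes listed in either table, and all 8 were listed in both. Primary OPCs came from the brains of early postnatal Sox10-Cre/RCE pups, and several brains were pooled per experiment. In the line, Sox10:Cre-RCE:LoxP(EGFP), Cre under the Sox10 promoter switches on EGFP in the oligodendroglial lineage. The labels give the strain as C57BL/6j, whereas per the methods the Sox10:Cre parents were C57BL/6j and the RCE:loxP parents were of mixed C57BL/6xCD1 background. Cells of both groups were kept in proliferation medium with 20 ng/mL bFGF and 20 ng/mL PDGF-AA per the labels, and the methods give a higher bFGF concentration. From 24 h after passaging, IFN-γ-OPCs also received 100 ng/mL IFN-γ and Ctr-OPCs did not. The 24 h mark the start of treatment, and the methods for primary OPC culture give a longer time as its length. Each group had 3 H3K27ac HiChIP libraries, an assay that captures chromatin contacts of regions carrying this mark of active enhancers and promoters, but 1 table of values serves all 3. No value therefore has a replicate error, no difference between the groups was tested, and the depth is unknown. Differences are given by size only, and a difference of 1.5-fold or more is called large.

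These genes build and hold the matrix around OPCs and neurons. Brevican (Bcan), neurocan (Ncan) and versican (Vcan) are lecticans, secreted chondroitin sulfate proteoglycans that bind hyaluronan at one end and tenascins at the other. NG2 (Cspg4), neuroglycan C (Cspg5) and the receptor phosphatase PTPζ (Ptprz1) carry chondroitin sulfate at the cell surface, and NG2 is the classical surface marker of OPCs. Tenascin-R (Tnr) and tenascin-C (Tnc) are multimeric glycoproteins that crosslink lecticans, and both are ligands of PTPζ.

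In the activity-by-contact (ABC) model the score of a pair is the activity of the element (from ATAC-seq and H3K27ac) times its contact with the gene, divided by the sum of such products around the gene, called the gene total here. A pair scoring above 0.05 is called a connection here, and pairs were listed from a score of 0.02. Ctr-OPCs had 35 listed pairs for the 8 genes, of which 15 were connections. IFN-γ-OPCs had 34 pairs and 10 connections. Only Bcan had more connections with IFN-γ (1 and 2), and 5 genes had fewer, namely Cspg4 (3 and 2), Cspg5 (4 and 2), Ncan (3 and 2), Vcan (1 and 0) and Ptprz1 (3 and 2). Tnr and Tnc had no connection in either group. Of all genes listed in either table, 14.9% had more connections in IFN-γ-OPCs and 13.0% fewer. Of protein-coding genes listed in both, these shares were 14.8% and 12.7%. A gene without a connection in Ctr-OPCs cannot have fewer. Ctr-OPCs had 11648 connections over 25779 target genes, so many genes could not, whereas all members but Tnr and Tnc could. The shares with fewer are therefore not a like comparison for the members.

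The cut-off decides much of the member counts. Of the 6 connections seen only in Ctr-OPCs, 5 were still listed in IFN-γ-OPCs with scores of 0.0376 to 0.0496, and their scores in Ctr-OPCs had been 0.0501 to 0.0681. The sixth, an element of Vcan at 0.119, was not listed with IFN-γ at all. The only connection specific to IFN-γ-OPCs, an intronic element of Bcan at 0.0585, was not listed in Ctr-OPCs. Over all listed pairs, Cspg5 had more with IFN-γ (5 and 6), Ptprz1 had fewer (10 and 8) and the other 6 genes had as many. With a shared connection defined as one whose elements overlap by at least 1 bp, 9 of 15 Ctr-OPC connections were shared (60.0%, 95% Wilson interval 35.8 to 80.2%), as were 9 of 10 in IFN-γ-OPCs (90.0%, 59.6 to 98.2%). The intervals cover counting error only. They also treat connections as independent, although connections of the same gene share its gene total. Over all genes, 49.5% of Ctr-OPC connections and 46.3% of IFN-γ-OPC connections were shared.

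**Figure D1:**
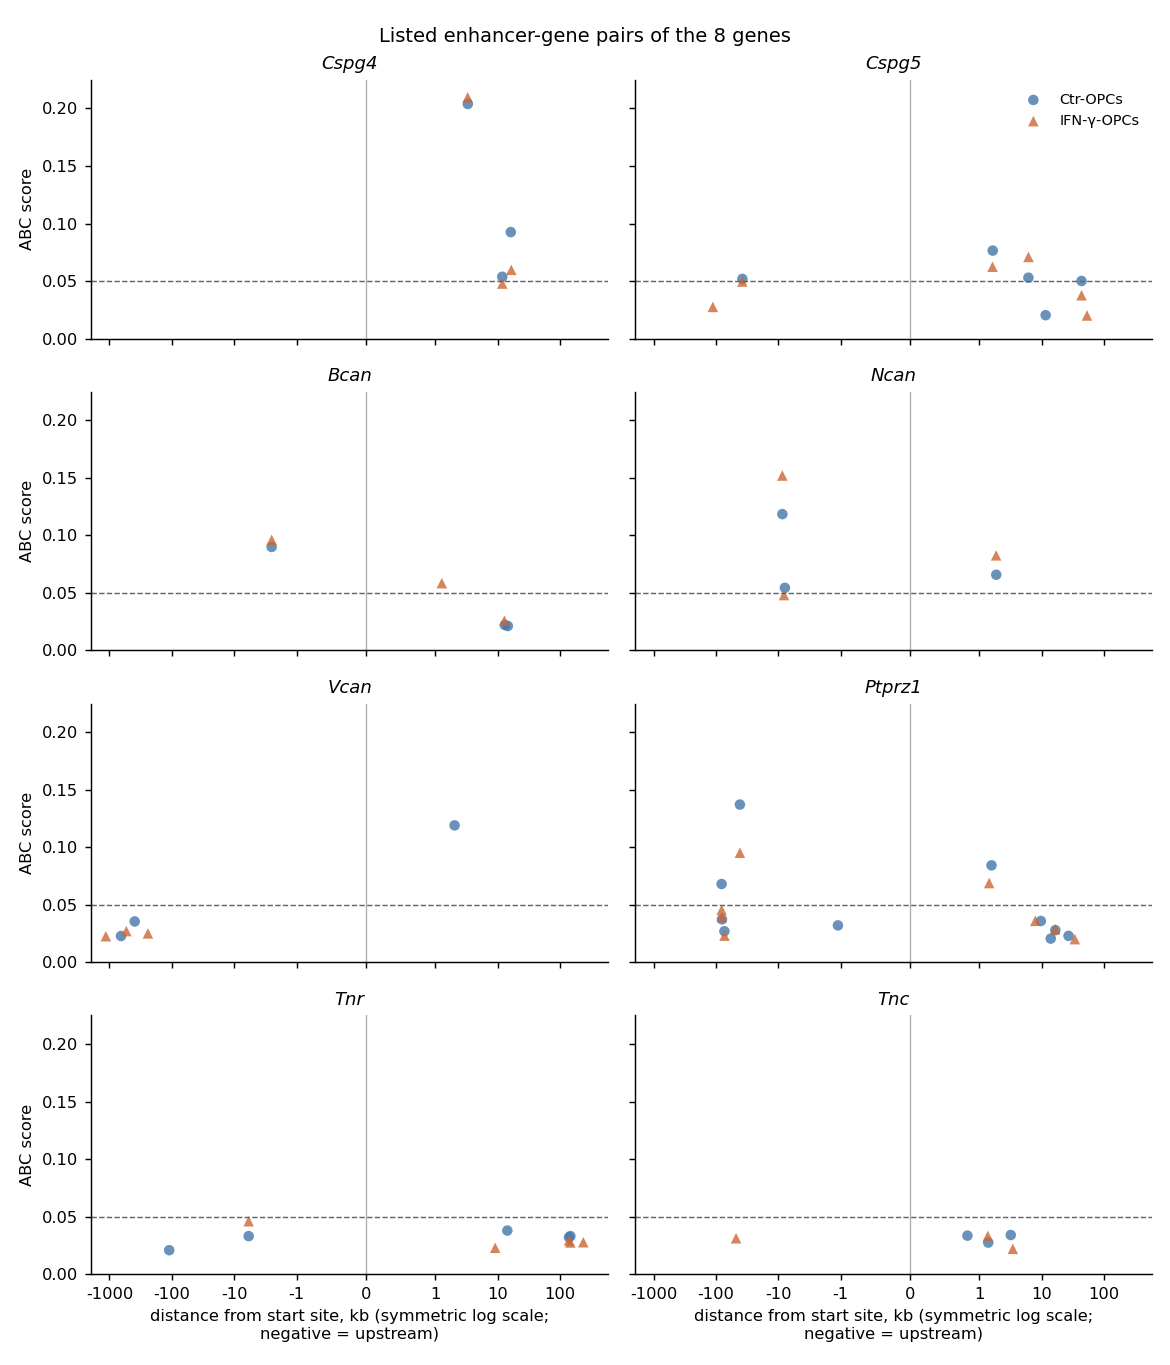
ABC score of each listed pair (vertical axis) against the distance of its element from the start site of the gene in kb (symmetric log scale, negative values upstream), for Ctr-OPCs (circles) and IFN-γ-OPCs (triangles). The dashed line marks the cut-off of 0.05; the Cspg4 element 3.34 kb downstream scores highest in both groups, and all points of Tnr and Tnc lie below the line.

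The highest-scoring elements of Cspg4, Ncan, Ptprz1 and Bcan were connections in both groups, and the central 300 bases of each are shown because each is the leading element of its gene in both groups. The sequences are the plus strand of GRCm38.p6 (mm10, the build of the tables) and are positioned on the element as called in Ctr-OPCs. They lie at chr9:56868222-56868521, chr8:70129318-70129617, chr6:22834151-22834450 and chr3:88002589-88002888, and none overlaps an annotated exon. Capitals mark matches, on either strand, to 8 motifs searched: AP-1 (TGANTCA), SOX (AACAAT and ACAAAG), E-box (CATCTG and CAGCTG), TEAD (GGAATG), STAT GAS (TTCNNNGAA) and an interferon-stimulated element pair (GAAA, any 2 bases, GAAA).
Cspg4 intron: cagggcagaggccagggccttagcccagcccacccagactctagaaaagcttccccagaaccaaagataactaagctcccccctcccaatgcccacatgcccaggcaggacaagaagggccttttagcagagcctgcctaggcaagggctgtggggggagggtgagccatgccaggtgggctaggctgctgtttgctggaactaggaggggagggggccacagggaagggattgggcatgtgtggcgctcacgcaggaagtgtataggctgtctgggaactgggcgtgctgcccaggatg
Ncan upstream: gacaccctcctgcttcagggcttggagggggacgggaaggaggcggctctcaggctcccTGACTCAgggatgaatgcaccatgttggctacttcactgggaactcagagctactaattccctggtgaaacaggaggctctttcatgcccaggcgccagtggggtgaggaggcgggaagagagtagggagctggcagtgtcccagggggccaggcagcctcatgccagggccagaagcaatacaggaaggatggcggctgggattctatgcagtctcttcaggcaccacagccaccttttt
Ptprz1 upstream: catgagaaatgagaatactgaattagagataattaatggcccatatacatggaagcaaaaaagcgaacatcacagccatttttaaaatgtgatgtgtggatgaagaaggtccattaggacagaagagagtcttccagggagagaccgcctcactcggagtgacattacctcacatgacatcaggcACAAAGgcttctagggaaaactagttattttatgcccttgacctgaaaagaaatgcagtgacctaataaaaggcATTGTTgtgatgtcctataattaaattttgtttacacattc
Bcan upstream: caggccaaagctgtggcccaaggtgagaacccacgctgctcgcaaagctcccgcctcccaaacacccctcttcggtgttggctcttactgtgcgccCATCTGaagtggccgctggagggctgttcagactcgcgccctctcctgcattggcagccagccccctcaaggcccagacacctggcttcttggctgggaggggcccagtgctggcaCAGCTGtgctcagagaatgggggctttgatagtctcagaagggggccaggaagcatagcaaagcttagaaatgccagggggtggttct
The Cspg4 window holds no match to these letters. The Ncan window holds an AP-1 match at position 60, counted from the left end. The Ptprz1 window holds both SOX words, at positions 186 and 260, and is richest in A and T, with a GC content of 38.7% against 59.7 to 61.7% in the other windows. The Bcan window holds both E-boxes, at positions 97 and 213. Neither interferon-linked motif occurs in any of them.

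Over the same central windows of all member elements, the STAT GAS motif occurred in 1 of 35 in Ctr-OPCs and 1 of 34 with IFN-γ, against 8.51% and 9.23% of all elements. The interferon-stimulated pair occurred in 1 and 3, against 3.07% and 5.68% of all elements. AP-1 was held by 8 of 35 windows in Ctr-OPCs and 5 of 34 with IFN-γ (9.14% and 10.8% of all elements), and the E-box CATCTG by 11 and 15 (25.2% in both groups). The other E-box was held by 11 and 13 (26.3% and 25.6%), and TEAD by 8 and 5 (16.8% and 17.0%). SOX words were held by 5 and 6 windows (AACAAT; 11.0% and 12.4%) and by 11 and 8 (ACAAAG; 27% and 29.0%). With so few windows these counts are a description, and because the elements of 23 pairs overlap between the tables, the counts of the groups are not independent.

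Gene totals stayed close between the groups. The total of Bcan was the highest of the 8 in both, at 2.16 in Ctr-OPCs and 2.04 with IFN-γ, and stood at the 98.0th and 98.7th percentiles of all genes. Ncan followed at 2.08 and 1.91, then Cspg4 at 1.90 and 1.68 and Cspg5 at 1.41 and 1.35. Tnr had 0.996 and 0.905. Totals below the median of all genes in Ctr-OPCs were those of Ptprz1 (0.765 and 0.974), Tnc (0.577 and 0.590) and Vcan (0.504 and 0.528).

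Across the 8 genes the median log2 ratio of the total (IFN-γ-OPCs over Ctr-OPCs) was -0.08, beside -0.07 over all 20321 genes listed in both tables. None passed 1.5-fold in either direction, a size reached upward by 0.615% and downward by 0.118% of genes. Cspg4 had the lowest ratio (log2 -0.18). Ptprz1 had the highest (log2 0.35, 1.27-fold), and 3.60% of genes had a higher one. With contact replaced by the power-law value that depends on distance alone, the Ptprz1 ratio was 0.10 on the log2 scale.

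**Figure D2:**
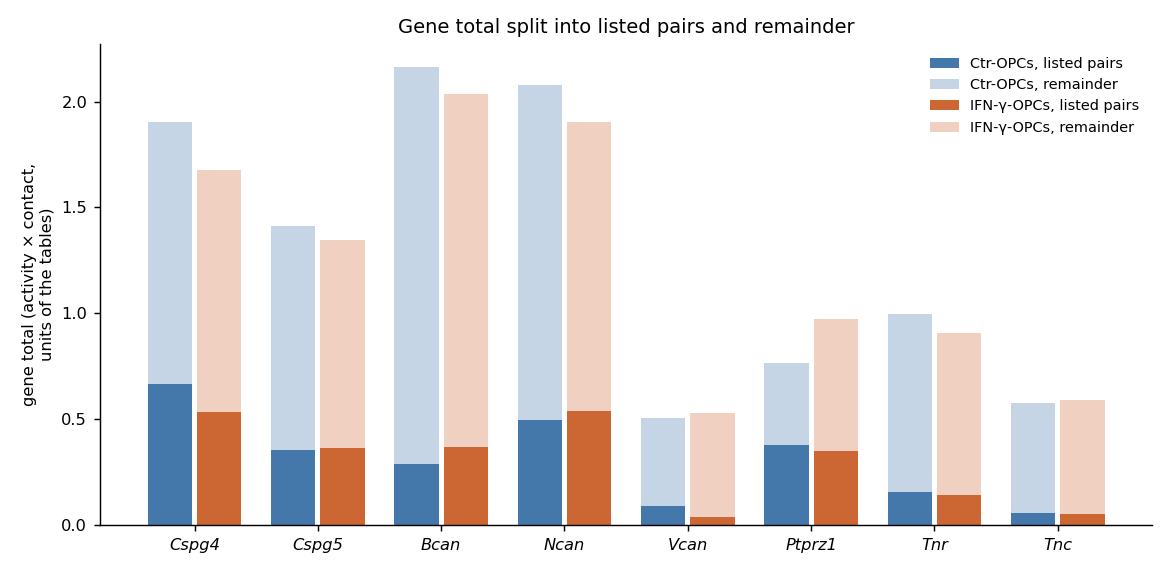
Gene total (bar height, activity times contact in the units of the tables) of each gene in Ctr-OPCs (blue) and IFN-γ-OPCs (orange), split into listed pairs (dark) and everything else (pale). Bcan and Ncan have the tallest bars and Vcan the shortest, and the taller IFN-γ bar of Ptprz1 lies in its pale part, 0.387 against 0.625.

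The listed pairs made up only part of each total. Their share was largest for Ptprz1 (49.4% in Ctr-OPCs and 35.8% with IFN-γ) and Cspg4 (35.0% and 31.7%), and smallest for Tnc in Ctr-OPCs (9.53%, and 8.68% with IFN-γ) and for Vcan in IFN-γ-OPCs (7.51%, against 17.8% in Ctr-OPCs). The remainder is what elements with scores under 0.02 and promoter elements left out of the tables contribute, and the tables do not separate them. For Ptprz1 the listed input was 0.378 and 0.348 (log2 -0.12), whereas the remainder was 0.387 and 0.625 (log2 0.69). For Bcan it was the listed input that was higher with IFN-γ (0.289 and 0.368), while the remainder was lower (1.88 and 1.67). Vcan had the largest difference in listed input of the 8 (0.0895 and 0.0397, log2 -1.17), with a remainder of 0.415 and 0.488. The quantile of promoter activity, where 1 is the most active promoter, was 0.930 and 0.962 for Ptprz1 and 0.930 and 0.893 for Bcan, and over the 8 genes it ran from 0.697 to 0.930 in Ctr-OPCs and from 0.714 to 0.962 in IFN-γ-OPCs.

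Bcan (chr3:87987531-88000230, minus strand) encodes brevican, a lectican of the central nervous system. Its leading element, 2.51 kb upstream of the start site and intergenic, scored 0.0900 in Ctr-OPCs and 0.0962 with IFN-γ. Both its activity (3.58 and 3.45) and its contact (0.0543 and 0.0569) were nearly level between the groups. It is the element whose sequence with the pair of E-boxes is printed above. In IFN-γ-OPCs an intronic element 1.28 kb into the gene, at chr3:87998701-87999200, was a further connection with a score of 0.0585, an activity of 2.52 and a contact of 0.0473. This intronic element had no listed counterpart with Bcan in Ctr-OPCs. The other matched element, at the 3′ end of the gene about 13 kb from the start site, scored 0.0221 and 0.0259. Its activity of 1.91 and 2.84 went with a width of 500 and 946 bp.

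The elements of Bcan were listed with neighbouring genes as well. In IFN-γ-OPCs Naxe, which encodes an enzyme of NAD(P)HX repair, had exactly the same 3 elements as Bcan (Jaccard index 1). In Ctr-OPCs the highest index was 0.333, with Gpatch4. No neighbour reached a connection with the leading element of Bcan in either group. Hapln2, which encodes a link protein that fastens lecticans to hyaluronan, lies 21.5 kb from Bcan and was named for this position, outside the rule for naming genes. It had no listed pair in Ctr-OPCs and 3 with IFN-γ, of which 2 used elements of Bcan, and its highest score was 0.0333.

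Ncan (chr8:70093085-70120873, minus strand) encodes neurocan. Its leading element, intergenic and 8.59 kb upstream, scored 0.119 in Ctr-OPCs and 0.152 with IFN-γ, the highest score of any lectican pair with IFN-γ. Activity (3.36 and 3.66) and contact (0.0733 and 0.0791) were each about 1.1-fold higher with IFN-γ, at ratios of 1.09 and 1.08, and the gene total was lower. An intronic element 1.88 kb downstream of the start site scored 0.0658 and 0.0827, with an activity of 2.77 and 2.48 and a contact of 0.0494 and 0.0635. The third, 7.83 kb upstream, was the connection that fell under the cut-off (0.0544 and 0.0482). Its activity was 1.55 and 1.16, and the called elements overlap by only 240 of 500 bp. Thus 2 of the 3 Ncan pairs scored higher with IFN-γ, although the count of connections was lower.

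Contacts are binned at 5 kb, so the upstream elements of Ncan share 1 contact value. Contacts are printed with the pseudocount of the model, and ratios to the power-law contact are taken from the contact before it. Before the pseudocount the shared value was 0.0721 in Ctr-OPCs and 0.0779 with IFN-γ, which is 0.935 times the power-law contact for the leading element in Ctr-OPCs and 1.01 times in IFN-γ-OPCs, whereas the intronic element reached 0.390 and 0.504 times. The median over all member pairs was 0.462 and 0.573, and over all listed pairs 0.448 and 0.486. The leading Ncan element was a connection of the same 6 genes in both groups: Ncan with the highest score, then Gm25906, Nr2c2ap, Rfxank, Borcs8 and Mef2b. Borcs8 and Mef2b had exactly the 3 elements of Ncan in both groups, as did Nr2c2ap and Rfxank. Rfxank encodes a subunit of the RFX complex that binds MHC class II promoters.

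Vcan (chr13:89655312-89742509, minus strand) encodes versican. Its sole connection in Ctr-OPCs lay 2.05 kb downstream of the start site, at chr13:89740211-89740710, in an untranslated part of Vcan and an intron of Gm4117, and scored 0.119. Its activity of 2.52 stood at the 92.2nd percentile of elements. Its contact was 0.0238, and 0.0226 before the pseudocount, which is 0.183 times the power-law value and the lowest such ratio among the member pairs. In IFN-γ-OPCs no element overlapping it was listed with any gene, so an element not called and one scoring under 0.02 with all its genes cannot be told apart. The gene total was nevertheless 0.504 and 0.528.

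The other pairs of Vcan were the most distant of the set. In Ctr-OPCs they lay 394 and 653 kb upstream, in introns of Tmem167 and Gm47520, with scores of 0.0356 and 0.0229. In IFN-γ-OPCs they lay 242, 537 and 1144 kb upstream with scores of 0.0252, 0.0272 and 0.0227. No Vcan pair was matched between the groups. The most similar sets of elements were those of Gm47521 in Ctr-OPCs (Jaccard index 0.667) and Gm44338 in IFN-γ-OPCs (0.4). Contact before the pseudocount was 1.15 to 2.54 times the power-law value in Ctr-OPCs for these distant pairs and 1.55 to 10.7 times in IFN-γ-OPCs. Pairs at such distances with low contact do not reach a score of 0.02 and are not in the tables. The most distant element, at an exon of Atp6ap1l, had a contact of 0.0128, above that of the Ptprz1 element 41.2 kb from its gene.

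**Figure D3:**
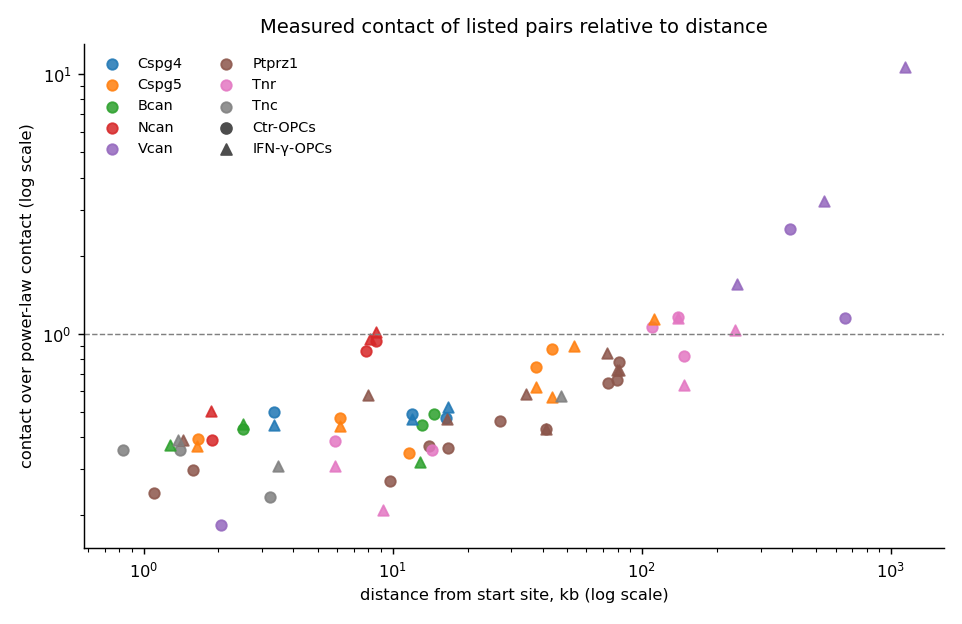
Measured contact before the pseudocount divided by the power-law contact expected from distance (vertical axis, log scale) against distance of the element from the start site in kb (log scale), for all listed pairs of the 8 genes, with circles for Ctr-OPCs and triangles for IFN-γ-OPCs. Most pairs lie below the dashed line at 1, the upstream Ncan pairs lie near it at about 8 kb, and the distant Vcan pairs lie above it, up to 10.7.

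Cspg4 (chr9:56865033-56899870, plus strand) encodes NG2. All its listed elements were intronic in both groups. The leading one, 3.34 kb from the start site at chr9:56868122-56868621, had the highest score of the whole set in both groups, 0.204 and 0.210. Its activity of 6.17 and 6.25 ranked 73rd of 33083 elements in Ctr-OPCs and 36th of 35906 with IFN-γ. Its contact was 0.0629 and 0.0562. It was a connection of Odf3l1 too in both groups, with a higher score there than for Cspg4, and Odf3l1 shared all 3 elements of Cspg4 (Jaccard index 1 in Ctr-OPCs and 0.750 with IFN-γ).

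The second Cspg4 element, 11.9 kb in, dropped below the cut-off with scores of 0.0537 and 0.0478, its activity being 3.45 and 2.82. The third, 16.3 kb in, scored 0.0925 and 0.0597 and had an activity of 7.98 and 4.17, a ratio of 0.523. It was called at 1117 bp in Ctr-OPCs and at 500 bp with IFN-γ. Per kb of element its activity was 7.14 and 8.35, so the direction turns when width is taken into account. Whether the deposited activity is meant per element or per length is not stated in the sources used here.

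Cspg5 (chr9:110243783-110262576, plus strand) encodes neuroglycan C, a transmembrane proteoglycan. It had 4 connections in Ctr-OPCs and 2 with IFN-γ. The element over a coding exon, 1.65 kb from the start site, scored 0.0765 and 0.0624 with an activity of 2.16 and 1.80. An intronic element at 6.15 kb went the other way, scoring 0.0529 and 0.0710 with an activity of 1.5 and 2.05. These elements share a contact bin (0.0499 and 0.0468), so that their order reversed through activity. Both remained connections.

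The connections that Cspg5 had only in Ctr-OPCs lay farther out and close to the cut-off. An element in a coding exon of Smarcc1, 37.6 kb upstream, scored 0.0519 and 0.0496, and its activity of 4.27 and 4.60 was not lower with IFN-γ. An intergenic element 43.7 kb downstream scored 0.0501 and 0.0376. Here activity was 4.02 and 4.26, while contact was 0.0176 and 0.0119, a log2 ratio of -0.56 and the largest difference in contact among the matched member pairs. Gm42775 had the most similar set of elements, with an index of 0.5 in Ctr-OPCs and 0.833 with IFN-γ.

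Ptprz1 (chr6:22875502-23052916, plus strand) encodes PTPζ, whose ectodomain also occurs as the secreted proteoglycan phosphacan. It had the most pairs of the set, 10 in Ctr-OPCs and 8 with IFN-γ, with as many upstream as within its introns in each group. The leading element lay 41.2 kb upstream at chr6:22833608-22834993 and was 1386 bp wide in Ctr-OPCs and 1364 bp with IFN-γ. Its activity of 10.8 and 9.56 ranked 8th and 10th of all elements. It was listed with 35 genes in Ctr-OPCs and 28 with IFN-γ, of which 16 and 10 were connections, and Ptprz1 had the third highest score among them in both. The named protein-coding genes connected with it in both groups included Wnt16, Rnf148 and Aass.

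The score of this upstream element for Ptprz1 was 0.137 in Ctr-OPCs and 0.0954 with IFN-γ, a ratio of 0.695. Its contact was 0.00967 and 0.00971, its activity ratio was 0.882, and the gene total in the denominator was 1.27-fold higher. On the log2 scale the score differed by -0.52, of which the total made up the largest term (activity -0.18, contact 0.00, total 0.35). An element 80.9 kb upstream scored 0.0681 and 0.0457 with an activity ratio of 0.912 and a contact ratio of 0.935. The third connection in Ctr-OPCs, an intronic element 1.58 kb from the start site, scored 0.0843 and 0.0689. Its contact was 0.0382 and 0.0492, and its activity 1.69 and 1.36, at widths of 706 and 500 bp. Contact was higher with IFN-γ for 5 of the 6 matched Ptprz1 pairs, by 1.00 to 1.29-fold, and lower for the element at 80.9 kb. An element 1.1 kb upstream, with a score of 0.0321, was listed in Ctr-OPCs only. Gm8927 had the most similar elements in Ctr-OPCs (Jaccard index 0.462) and Gm18861 and Gm8927 in IFN-γ-OPCs (0.6).

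Tnr (chr1:159523769-159931729, plus strand) encodes tenascin-R, a tenascin made by oligodendroglia and some neurons. Its 5 pairs in each group scored 0.0209 to 0.0380 in Ctr-OPCs and 0.0230 to 0.0461 in IFN-γ-OPCs. The element 5.86 kb upstream had an activity of 0.773 and 1.21, the only matched member pair with activity at least 1.5-fold higher with IFN-γ. It was 500 bp wide in both groups, its contact was 0.0427 and 0.0346, and its score of 0.0332 and 0.0461 stayed below the cut-off. Far inside the gene, elements 140 and 147 kb from the start site had activities of 3.52 and 5.05 in Ctr-OPCs and of 2.94 and 4.67 with IFN-γ, at or above the 95.7th percentile. Their contact was at most 0.00912, and their scores were 0.0277 to 0.0332. A further intronic element 237 kb into the gene, with an activity of 4.44 and a score of 0.0279, was listed with Tnr only in IFN-γ-OPCs, while in Ctr-OPCs an overlapping element was listed with other genes. Gm10530, a transcript inside Tnr, had the most similar elements (Jaccard index 0.25 and 0.375).

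Tnc (chr4:63959785-64047015, minus strand) encodes tenascin-C, abundant in development and after injury. Its intronic elements near the start site were among the least active in the tables. In Ctr-OPCs the 3 elements, 0.83 to 3.21 kb from the start site, had activities of 0.35 to 0.649 and stood at the 4.84th to 32.4th percentiles. The matched elements at about 1.4 kb had activities of 0.35 and 0.4 and scores of 0.0275 and 0.0333. The other matched element, at 3.21 kb, had an activity of 0.649 and 0.330 and a score of 0.0341 and 0.0221. Its width was 1000 bp in Ctr-OPCs and 500 bp with IFN-γ, and per kb its activity was 0.649 and 0.660. None of the Tnc elements in Ctr-OPCs was listed with another gene. In IFN-γ-OPCs an element 47.4 kb upstream, in an intron of 8030451A03Rik, was listed with an activity of 1.64 and a score of 0.0313, and it was shared with Gm11216. An overlapping element was listed with other genes in Ctr-OPCs.

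Taking the 23 member pairs whose elements overlapped between the tables, the median log2 ratio of activity was -0.11, beside -0.09 over all 29858 matched pairs. Its direction turned, to 0.02, over the 19 member pairs with a reciprocal overlap of at least 50%. Activity was at least 1.5-fold higher for 1 pair (Tnr at 5.86 kb) and lower for 2 (Cspg4 at 16.3 kb and Tnc at 3.21 kb), sizes reached by 7.48% and 11.0% of all matched pairs. Contact passed 1.5-fold for none, against 12% of all pairs upward and 8.33% downward, and its median log2 ratio was 0.00. The median log2 ratio of the score was -0.13, beside 0.02 over all matched pairs, and it turned to 0.04 with the reciprocal overlap. The score was at least 1.5-fold lower for the same 2 pairs and higher for none, against 13.6% and 14.8% of all pairs.

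Both large differences toward lower activity were at elements called wider in Ctr-OPCs. Over all matched pairs whose element was narrower by 1.5-fold or more in IFN-γ-OPCs (3917 pairs) the median log2 activity ratio was -0.65, and over those wider by as much (2209 pairs) it was 0.60. Where width was equal (17318 pairs) it was -0.08. For the 16 member pairs of equal width it was -0.02, and none of these had activity or score 1.5-fold lower. The part of width in the activity differences was not tested.

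**Figure D4:**
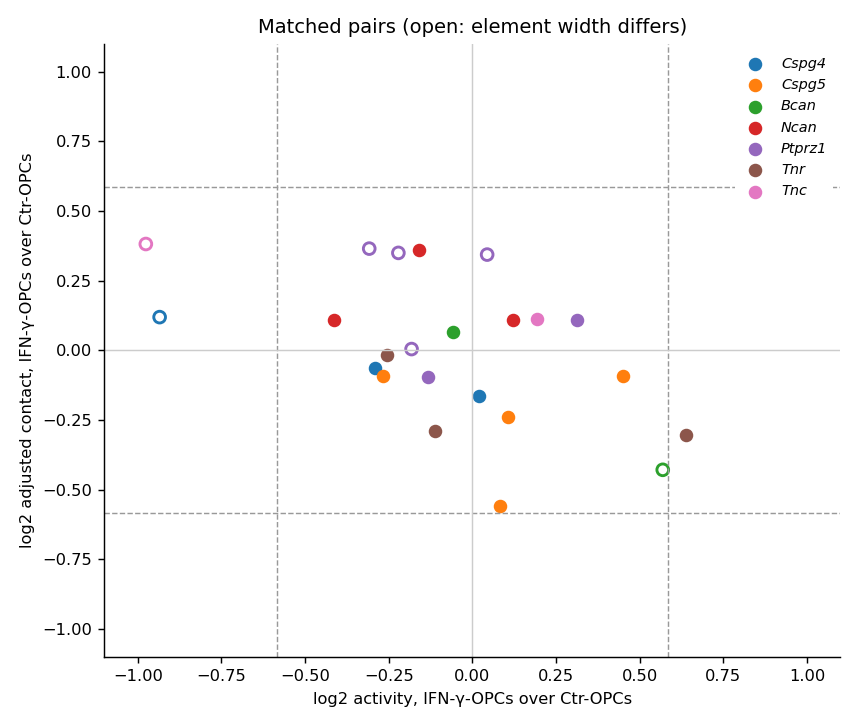
Log2 ratio of adjusted contact, that is with the pseudocount (vertical axis) against log2 ratio of activity (horizontal axis), IFN-γ-OPCs over Ctr-OPCs, for the 23 matched member pairs, coloured by gene; open symbols mark elements whose width differed between the groups. Dashed lines mark 1.5-fold. Only 3 points lie outside the dashed lines on the activity axis, an open Cspg4 and an open Tnc point at the left and a Tnr point at the right, and none lies outside on the contact axis.

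Ranked among all listed elements, those of the members had a median activity percentile of 89.1 in Ctr-OPCs and 91.1 with IFN-γ. This ranking counts each element once, whereas an element is listed once for each of its genes. No such median was taken over all listed pairs, so whether the members stand out was not tested. The member elements lay at a median of 13.1 and 16.6 kb from the start site, against 15.2 and 15.8 kb over all listed pairs. They were genic in 62.9% and 67.6% of cases, against 70.1% and 68.8%. In Ctr-OPCs 11 of 35 member pairs had an element listed with no other gene, and in IFN-γ-OPCs 5 of 34, beside 29.8% and 30.3% of all listed pairs. The order of activity among genes differed from that of the totals. Cspg4 had the most active elements in Ctr-OPCs by their median (6.17), and Tnc the least (0.427).

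Genes that act on the same matrix were read from lists of link proteins and hyaluronan synthesis, other tenascins, chondroitin sulfate synthesis, receptors and binding partners, and proteases and hyaluronidases. Of these 70 genes, 65 were listed, with 38 connections in Ctr-OPCs and 44 with IFN-γ. More connections with IFN-γ were found for 13 and fewer for 7, beside 14.9% and 13.0% of all genes, and each single list holds only a few such genes. None changed by 2 or more or had a total 1.5-fold different, with a median log2 total ratio of -0.04 over the 53 listed in both tables. Chondroitin sulfate synthesis had 7 and 10 connections (4 genes with more, 1 with fewer), and the proteases and hyaluronidases 10 and 13 (4 and 1). Receptors and binding partners had 9 and 10 (3 and 2). The link protein and hyaluronan list was the only one with fewer connections in IFN-γ-OPCs (10 and 8; 1 gene with more and 3 with fewer).

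The link protein genes lie beside the lecticans in the mouse genome and are named here for that position, outside the rule for naming genes. Hapln1 is 43.7 kb from Vcan, and its best score was 0.0861 in Ctr-OPCs and 0.0763 with IFN-γ, with 2 and 3 connections. Hapln4 is 2.22 kb from Ncan, and its best score was 0.0507 and 0.0400. Neither shared an element with its lectican neighbour in either group. Acan, the remaining lectican gene, was not listed in either table.

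The libraries came from cultures labelled as OPCs, and the promoter quantiles of marker genes were read beside this label. Activity came from separate ATAC-seq and H3K27ac assays, so these quantiles describe the cultures of those assays and cannot check the HiChIP libraries. The 8 OPC markers were all listed, at a median quantile of 0.942 in Ctr-OPCs and 0.923 with IFN-γ. Markers of mature oligodendrocytes had medians of 0.701 (5 of 7 listed) and 0.706 (6 of 7), and those of astrocytes 0.785 and 0.781 (6 of 8 in each group). Microglial markers had medians of 0.642 (4 of 8 listed) and 0.625 (5 of 8), and neuronal markers 0.669 (7 of 8) and 0.651 (8 of 8). Markers of vascular or leptomeningeal cells had 0.572 and 0.535 (5 of 8 in each group). Targets with a quantile under 0.4 are not in the tables, so markers below it do not enter these medians, which can be set high by this. Ncan, Bcan, Tnc and Vcan are also used by astrocytes or other cells of the brain, and the part of such cells in the values was not tested.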

How the data were processed

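Both tables were made by the authors. Per the study's methods, HiC-Pro served to align the HiChIP reads to mm10 and to remove duplicates, and the ABC model took contacts from HiChIP together with activity from ATAC-seq and from CUT&RUN for H3K27ac. The 5 kb bin of contacts is taken from the names of the deposited tables. The deposited activity is a signal, contact and the promoter quantile are deposited as scores, and the deposited ABC score is a fraction of the gene total. How activity was scaled between conditions is not given in the sources used here. Their lowest score is 0.02, self-promoter pairs are left out, and each target has a promoter quantile of 0.4 or more. Here, symbols came from GENCODE M21 (31937 of 32049 genes matched). The gene total is the numerator over the score. Elements were matched between tables by at least 1 bp of overlap for the same gene, and the pair with the largest overlap was kept. Printed contacts include the model's pseudocount, and ratios to the power-law contact use the contact without it. Sequences and motif counts came from RefSeq GRCm38.p6. Python 3.11.15, pandas 2.3.3 and NumPy 2.4.6 were used, and matching and calling were tested on simulated data. Samples were grouped by library title. Genes named beyond the 8 are the one with the most similar elements and those connected with the leading element of a member, besides genes that only say where an element lies and exceptions stated in the text. The members and gene lists were chosen with earlier results of these data known.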

Additional observations from a re-analysis of the deposited data

How the results depend on the processing

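No paired analysis was possible because each condition has 1 pooled table, so no library could be left out either, and the limits of depth are unknown. The connection counts turned on the cut-off. Over all deposited pairs there were 35 in Ctr-OPCs against 34 with IFN-γ, 1 gene had fewer with IFN-γ, and Cspg5 went from 2 fewer to 1 more. With the stricter cut-off of 0.1, 4 and 2 connections remained above it, 0 genes with more and 2 with fewer, and 100% of IFN-γ-OPC connections were shared. The power-law score gave 17 connections in Ctr-OPCs against 14, and 3 genes had fewer, namely Vcan, Ptprz1 and Tnc, whereas Cspg4, Cspg5 and Ncan had as many in both groups. Taking equal numbers of top-scoring connections left every connection count as reported. With a reciprocal overlap of at least 50%, which kept 19 of the 23 pairs, the median log2 ratios of activity and score turned from -0.11 and -0.13 to 0.0204 and 0.0402. Among elements of equal width, a setting chosen after seeing the data, the median log2 ratio of score was -0.0125. The cause was not tested for any of these. For the median gene total and contact, no setting moved the value by more than 0.1 on the log2 scale.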
